A study of Mus musculus with 12 samples.

Results

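Among the arrays of this series, 6 of 12 came from wild type (WT) mice: 3 labelled WT diaphragm and 3 labelled WT gastrocnemius, each a biological replicate per its label. The comparison between these labels is described here over 19938 genes, each represented by its brightest probe set with 1 gene symbol. All mice were males on the C57Bl6 background, aged 10 to 12 weeks and, per the study's methods, fed a regular diet. The WT mice were C57BL/6J animals bought from Harlan and matched by age and sex. Whether both muscles came from the same mice is not given in the sources used here, so that p-values measure the spread between these samples. The other 6 arrays came from mice with a deletion of *Cox6a2* in the whole body (KO), 3 from diaphragm and 3 from gastrocnemius, and they share no array with the WT comparison. They served as the reference for how the same labels differ on this platform.

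Diaphragm and gastrocnemius differ in ways that leave a clear trace in mRNA. The diaphragm is a respiratory muscle that works without pause, holds mostly oxidative fibers, is covered by mesothelium and develops from progenitors of the neck, which express Hox genes of the cervical region. The gastrocnemius is a calf muscle of mostly fast glycolytic fibers, rich in the myosin heavy chain MYH4 (type IIB), and keeps the expression of posterior Hox genes that mark the hindlimb. The question put to the data was which tissue the arrays with the diaphragm label, called the WT diaphragm-labelled arrays below, resembled, and which genes still separated them from WT gastrocnemius.

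Values are log2 signals after robust multi-array averaging (RMA) by the authors, so that a difference of 1 is a factor of 2. Differences were tested with limma over all genes in 1 model of the 4 groups, and a gene was called at a Benjamini-Hochberg adjusted p under 0.05. *Cox6a2*, the deleted gene, was at 11.84, 11.75 and 12.06 on the WT diaphragm-labelled arrays and at 11.84, 11.65 and 11.73 in WT gastrocnemius, against 6.71 to 7.18 on the KO arrays, so that the genotype labels held on all 12 arrays. The WT diaphragm-labelled arrays had correlations among themselves, over all genes, of 0.992 to 0.995, with WT gastrocnemius at 0.989 to 0.992, with KO gastrocnemius at 0.988 to 0.991 and with KO diaphragm at 0.963 to 0.975. The KO diaphragm and KO gastrocnemius arrays correlated at 0.963 to 0.974. These are correlations across genes, which are not independent, and are given as a description.

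The WT diaphragm-labelled arrays did not carry the profile that separated diaphragm from gastrocnemius in KO mice. Between the KO muscles 5767 genes were called, 28.9% of those tested, with 3535 higher in diaphragm (17.7%) and 2232 lower (11.2%). The split depended on the scaling, with 2389 higher and 4323 lower after each array was centred on its median, which moved the median difference of all genes by -0.13 there, and 2798 higher and 2828 lower after quantile normalization. Of these genes 886 were called and differed by 2-fold or more, 600 of them higher and 286 lower. On the WT arrays the 600 had a median difference of -0.05, against 1.32 in KO, and the 286 had a median difference of -0.04, against -1.37 in KO. The values on the WT arrays lay within 0.5 of 0 for 801 of the 886 genes (90.4%, against 98.3% of all genes), and they had the sign of the KO difference for 418. Across the 886 genes the WT and the KO differences correlated at -0.003. Only 12 of the 886 were called in the WT comparison (1.35%, against 0.461% of all genes), 9 in the same direction as in KO and 3 in the opposite one.

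**Figure D1:**
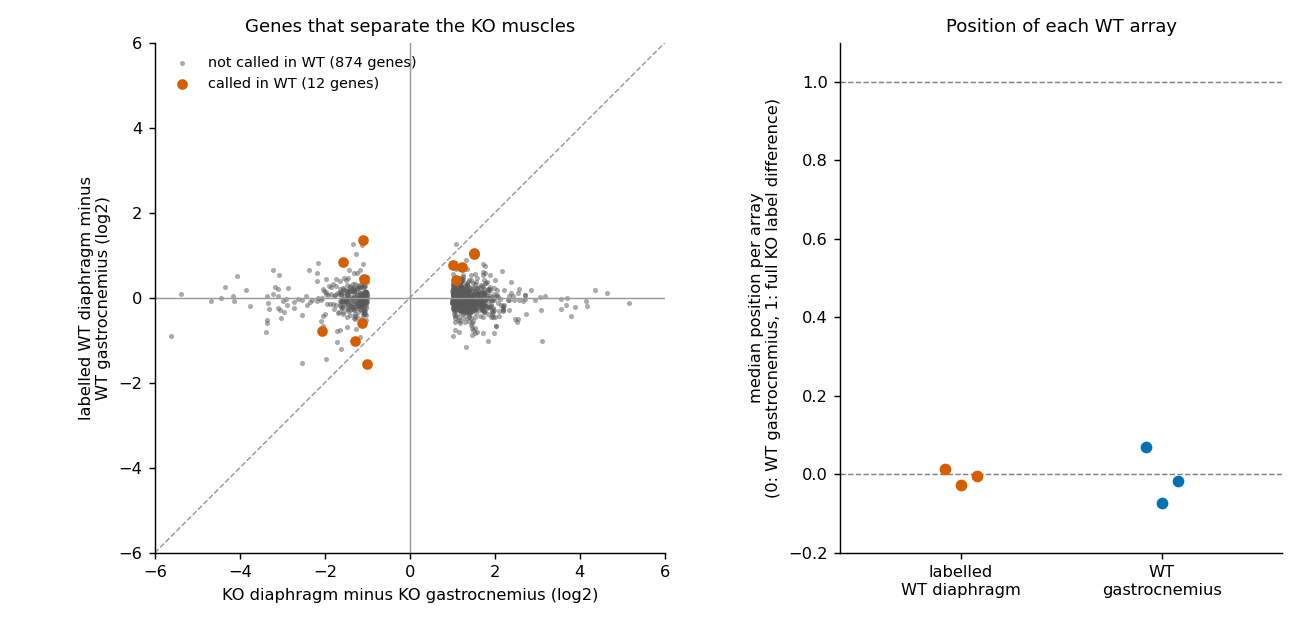
The left panel plots the log2 difference between the WT diaphragm-labelled arrays and WT gastrocnemius (vertical) against that between KO diaphragm and KO gastrocnemius (horizontal) for the 886 genes that separated the KO muscles by 2-fold or more, with the 12 genes called in WT in orange and a dashed line of equal differences. The right panel gives the median position of each WT array over these genes, where 0 is the mean of WT gastrocnemius and 1 a full KO difference, and all 6 arrays lie between -0.072 and 0.069.

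The position of each array was expressed per gene as its distance from the WT gastrocnemius mean, divided by the KO difference, so that 0 stands for WT gastrocnemius and 1 for the full difference of KO diaphragm. The median over the 886 genes was 0.014, -0.028 and -0.0048 for the 3 WT diaphragm-labelled arrays. WT gastrocnemius arrays, each set against the other 2 of its group, were at 0.069, -0.072 and -0.018. The WT diaphragm-labelled arrays thus lay inside the range of the WT gastrocnemius arrays, and none approached 1. The difference between the labels itself differed between WT and KO for 2958 of all genes (14.8%), 1211 with a higher and 1747 with a lower value in WT. After median centring 2291 were higher and 1225 lower in that test, and after quantile normalization 1414 were higher and 1507 lower. It was also called for 817 of the 886 genes (92.2%). These genes were chosen on the KO difference, which enters that test, so that a high share was built in and nothing is drawn from it.

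Markers of the diaphragm's mesothelial covering were at the level of gastrocnemius. None of the 10 measured was called in WT (median difference -0.06, lowest -0.21, highest 0.22), while all 10 were higher in KO diaphragm (median 2.71, lowest 1.49). Over all genes 0.461% were called in WT, so that a short list would hold few calls there in any case. In KO 17.7% of all genes were called higher and 11.2% lower. *Upk3b*, a uroplakin used as a mesothelial marker, was at 5.27, 5.51 and 5.44 on the WT diaphragm-labelled arrays, at 5.50, 5.40 and 5.56 in WT gastrocnemius and at 8.82, 9.80 and 9.30 in KO diaphragm. *Msln*, which encodes mesothelin, was at 5.48, 5.35 and 5.50 on the WT diaphragm-labelled arrays and at 5.49, 5.11 and 5.54 in WT gastrocnemius, against 7.57, 8.50 and 7.95 in KO diaphragm. *Wt1*, a transcription factor of mesothelium, was at 5.51, 5.55 and 5.34 against 5.80, 5.63 and 5.44, with 6.81, 7.47 and 6.95 in KO diaphragm. The KO diaphragm arrays lay above all other arrays for these genes, and the WT groups overlapped. Summed over the 10 genes, the signal on the log2 scale ranged from 8.38 to 8.47 on the WT diaphragm-labelled arrays, from 8.38 to 8.61 in WT gastrocnemius, from 8.29 to 8.35 in KO gastrocnemius and from 11.06 to 11.90 in KO diaphragm. The label difference of all 10 genes differed between WT and KO, against 14.8% of all genes. Fewer cells of a type and less RNA per cell cannot be told apart in such bulk samples.

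Genes of body position gave the same picture. Of 11 hindlimb genes none was called in WT (median 0.05), against 0.461% of all genes. In KO 9 were lower in diaphragm than in gastrocnemius (median -0.91), against 11.2% of all genes. The label difference of 7 differed between WT and KO, against 14.8% of all genes. *Hoxc10*, a hindlimb Hox gene, was at 8.62, 8.75 and 8.68 on the WT diaphragm-labelled arrays and at 8.42, 8.36 and 8.55 in WT gastrocnemius, and at 4.53, 3.82 and 4.18 in KO diaphragm. The WT diaphragm-labelled arrays thus lay slightly above those of WT gastrocnemius, by 0.24 with a standard error (SE) of 0.14 (adjusted p = 0.492). *Hoxd10* was at 6.72, 6.86 and 7.10 against 6.48, 6.69 and 6.90, with 5.57, 5.49 and 4.96 in KO diaphragm, and *Hoxc9* at 7.21, 7.02 and 7.46 against 7.28, 7.14 and 7.07, with 5.72, 5.58 and 6.03. *Pitx1*, the homeobox gene that specifies the hindlimb, was not called in either comparison and ranged from 6.09 to 6.29 on the WT diaphragm-labelled arrays. Of 9 cervical Hox genes none was called in WT (median 0.09), while 6 were higher in KO diaphragm (median 0.41). The label difference of 4 differed between WT and KO. Over all genes these shares were 0.461%, 17.7% and 14.8%. After median centring 5 of the cervical genes were higher and 3 lower in KO diaphragm. *Hoxa5*, which is needed for the respiratory system in the mouse, was at 6.20, 6.16 and 6.34 on the WT diaphragm-labelled arrays and at 6.20, 5.59 and 5.82 in WT gastrocnemius, against 8.03, 7.77 and 7.70 in KO diaphragm. Among 30 other limb and trunk position genes none was called in WT. In KO 14 were called, 6 higher and 8 lower, against 28.9% of all genes. The diaphragm label was therefore not borne out by its defining markers, and these arrays are named by their label throughout.

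Contractile genes were likewise near the level of gastrocnemius. None of 10 myosin heavy chain genes was called in WT, whereas in KO 5 were higher and 3 lower in diaphragm. Over all genes 0.461% were called in WT, and in KO 17.7% were called higher and 11.2% lower. *Myh4*, the type IIB chain, was at 13.60, 13.50 and 13.59 on the WT diaphragm-labelled arrays and at 13.62, 13.66 and 13.63 in WT gastrocnemius, against 8.99, 9.15 and 8.74 in KO diaphragm. The difference in WT was -0.07 (SE 0.10, adjusted p = 0.83), and that in KO was -4.68. *Myh7*, the slow chain, was at 10.42, 10.12 and 10.94 on the WT diaphragm-labelled arrays and at 10.33, 11.19 and 11.04 in WT gastrocnemius, with 11.79, 11.87 and 12.07 in KO diaphragm. *Myh1*, the type IIX chain, differed by 0.03 in WT and by 0.77 in KO, and *Myh2*, the type IIA chain, by 0.08 in WT and by 0.58 in KO. The label difference of 6 of the 10 chains differed between WT and KO, against 14.8% of all genes. Of 17 genes of fast glycolytic fibers none was called in WT (lowest -0.18, highest 0.11), and 16 were lower in KO diaphragm (11 after quantile normalization). Of 19 genes of slow and oxidative fibers none was called in WT (median -0.07), and 14 were higher in KO diaphragm. *Tnnt1*, the slow troponin T, had a difference of -0.57 in WT (adjusted p = 0.283) and of 1.29 in KO, and *Sln*, which encodes sarcolipin, a regulator of the calcium pump, of -0.33 in WT (adjusted p = 0.403) and of 1.74 in KO.

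None of the genes on 4 lists of energy metabolism was called in WT, where 0.461% of all genes were. In KO 17.7% of all genes were called higher and 11.2% lower. No subunit of oxidative phosphorylation among 74 was called in WT (median 0.03), against 34 higher and 5 lower in KO diaphragm, or 17 higher and 8 lower after median centring. None of 20 genes of fatty acid uptake and oxidation was called in WT (median 0.12), against 18 higher and 1 lower in KO. None of 16 citric acid cycle genes was called in WT (median 0.10), against 13 higher in KO. Their mean log2 signal was 11.028 to 11.099 on the WT diaphragm-labelled arrays and 10.956 to 10.995 in WT gastrocnemius, without overlap, and 11.46 to 11.70 in KO diaphragm. In WT none of 20 genes of glycolysis and glycogen was called (median -0.01), against 2 higher and 16 lower in KO. The closest to a call in WT were *Ucp3*, a mitochondrial carrier of muscle, at 10.49, 10.22 and 10.14 on the WT diaphragm-labelled arrays and 8.67, 9.48 and 8.92 in WT gastrocnemius, and *Cox8b*, a cytochrome *c* oxidase subunit made in muscle, at 11.80, 11.49 and 11.86 against 11.35, 11.37 and 11.19. The arrays of the 2 labels did not overlap for either gene, but both missed the threshold, *Ucp3* with a difference of 1.26 (adjusted p = 0.0927) and *Cox8b* with one of 0.41 (adjusted p = 0.0971). *Ucp3* was called when only the 6 WT arrays were fitted (adjusted p = 0.0224), and *Cox8b* without replicate 2 of the WT diaphragm-labelled arrays (difference 0.53, adjusted p = 0.0338).

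Markers of other cell types that were higher in KO diaphragm were not called in WT. With 0.461% of all genes called, lists of this size would hold few calls in any case. In KO 17.7% of all genes were called higher and 11.2% lower. None of 13 macrophage genes was called in WT (median -0.33), against all 13 higher in KO diaphragm. The same held for 10 genes of B cells and plasma cells (8 higher in KO), 8 of T cells (5 higher), 8 of MHC class II (6 higher), 12 of white adipocytes (10 higher and 1 lower), 14 of endothelium (11 higher) and 17 of fibroblasts and collagen (10 higher). Endothelial genes had a median difference of 0.21 in WT with 5 of 14 at an unadjusted p under 0.05 (12.9% of all genes), and their mean log2 signal was 7.96 to 8.11 on the WT diaphragm-labelled arrays and 7.82 to 7.89 in WT gastrocnemius, without overlap, against 8.57 to 8.66 in KO diaphragm and 7.79 to 7.94 in KO gastrocnemius. Genes of Schwann cells and hepatocytes were called in neither comparison. *Jchain*, which encodes the joining chain of secreted antibodies, was at 3.57 to 3.70 on the WT diaphragm-labelled arrays and at 3.36 to 3.61 in WT gastrocnemius, while the KO diaphragm arrays were at 3.73, 10.73 and 10.07. *Adipoq*, the adipocyte hormone adiponectin, was at 5.95, 5.82 and 5.35 on the WT diaphragm-labelled arrays and at 7.20, 6.57 and 6.39 in WT gastrocnemius. Its difference of -1.02 was not called (adjusted p = 0.315), and that of *Cd68*, a macrophage marker, was -0.77 (adjusted p = 0.187).

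**Figure D2:**
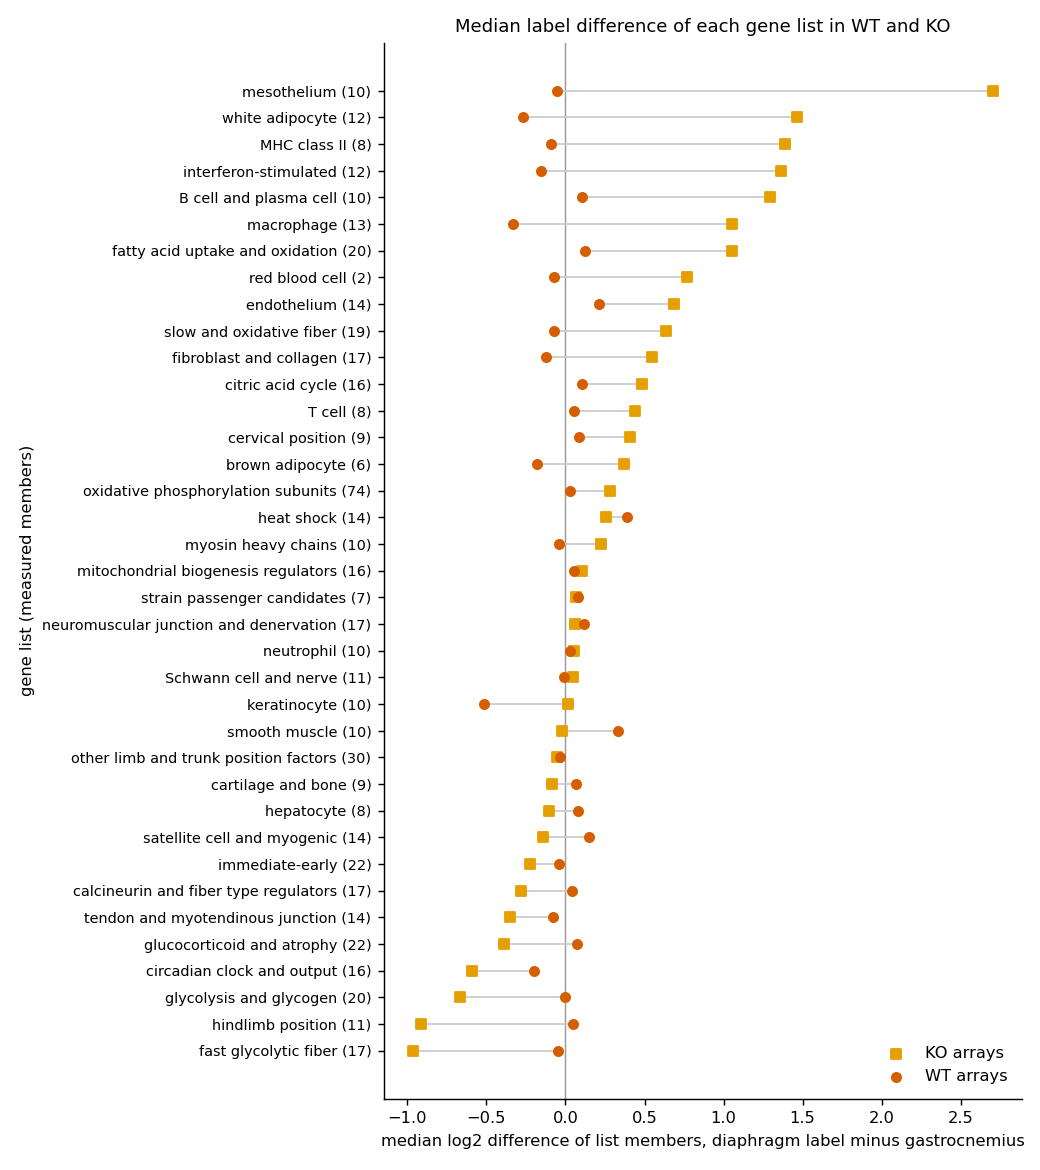
Median log2 difference of the measured members of 37 gene lists (rows, with the number of measured members), diaphragm label minus gastrocnemius, on the WT arrays (orange circles) and the KO arrays (yellow squares). The WT medians lie between -0.51 (keratinocyte) and 0.39 (heat shock), and the KO medians reach from -0.96 (fast glycolytic fiber) to 2.71 (mesothelium).

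A small set of genes still separated the labels in WT, some of which also separated the KO muscles. In the WT comparison 92 genes were called (0.461% of those tested), 59 higher (0.296%) and 33 lower (0.166%) on the WT diaphragm-labelled arrays. The median factor of the called genes was 1.58, and 16 passed 2-fold, 6 higher and 10 lower. The 3 arrays of one label lay wholly apart from the 3 of the other for all 92, but the same was true of 3352 genes in all (16.8%). At an unadjusted p under 0.05 there were 2577 genes (12.9%). After quantile normalization the calls were split evenly, 40 higher and 40 lower, while median centring gave 56 higher and 31 lower. The number of calls rested on single arrays. Without replicate 1, 2 or 3 of the WT diaphragm-labelled arrays it was 39, 84 or 47, with more lower than higher genes, 15 higher and 24 lower, in the absence of replicate 1, and without replicate 1, 2 or 3 of WT gastrocnemius 46, 55 or 42, the last with 19 higher and 23 lower. With only the 6 WT arrays in the model it was 45, of which 36 were among the 92. That fit ended the calls of *Odc1*, *Mras*, *Eepd1*, *H2bu2*, *Vgll4*, *Fzd7*, *Slc6a9*, *Il20rb*, *Tada2a*, *Armcx5*, *Myog* and *Sdc4*, which are described next (adjusted p from 0.0605 to 0.14).

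The genes with the largest positive differences were led by *Nr4a3*, a nuclear receptor induced early by exercise and adrenergic signals in muscle. It was at 9.54, 7.49 and 8.06 on the WT diaphragm-labelled arrays and at 6.18, 6.19 and 5.38 in WT gastrocnemius, a difference of 2.44 (SE 0.42, adjusted p = 0.0213). The KO arrays lay above WT gastrocnemius, at 6.65 to 7.66 in diaphragm and 6.91 to 7.78 in gastrocnemius, and overlapped with the lowest of the WT diaphragm-labelled arrays. *Cntfr*, the ligand-binding chain of the receptor for ciliary neurotrophic factor, was at 9.73, 8.56 and 8.60 against 7.40, 7.20 and 7.65, a difference of 1.55 (SE 0.29, adjusted p = 0.0305). In both genes replicate 1 of the WT diaphragm-labelled arrays was the highest of all 12 arrays. The list of heat shock genes had a median difference of 0.39 with none of 14 called, and 7 had an unadjusted p under 0.05, against 12.9% of all genes. The heat shock gene *Hspa1a* was also highest on replicate 1 of the WT diaphragm-labelled arrays, at 9.71 against 6.89 and 7.26 on the other 2 arrays of that label. The part of that array's stress genes in these differences was not tested, but without it *Nr4a3* was still called, with a difference of 1.86, and *Cntfr* was not (1.16, adjusted p = 0.0748). *Nr4a3* was not called without replicate 1 or 3 of WT gastrocnemius (adjusted p = 0.0514 and 0.0925) or with a trended and robust variance (adjusted p = 0.0958). *Cntfr* was not called without any 1 of the WT gastrocnemius arrays either (adjusted p from 0.066 to 0.0955).

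Other genes kept their call under all 14 alternative limma fits of the WT comparison, though the methods' t-test called 0 genes after Benjamini-Hochberg adjustment and 1930 unadjusted. *Tfrc*, the transferrin receptor for iron uptake, was at 10.37, 10.38 and 10.52 on the WT diaphragm-labelled arrays and at 9.07, 9.26 and 9.05 in WT gastrocnemius, a difference of 1.30 (SE 0.13, adjusted p = 5.4e-04). The KO arrays of both muscles ranged from 10.10 to 10.62, so that WT gastrocnemius was the group that stood apart. *Slc7a8*, a transporter of neutral amino acids, was at 8.98, 8.96 and 8.84 against 7.30, 7.50 and 7.94, a difference of 1.35 (SE 0.18, adjusted p = 0.00375), while in KO it was lower in diaphragm, by -1.11. *Zdhhc23*, a protein palmitoyltransferase, was at 8.09, 7.72 and 8.48 against 7.20, 6.92 and 7.01 (difference 1.05, adjusted p = 0.00979). *Egln3*, a prolyl hydroxylase that acts on hypoxia-inducible factors, was at 9.48, 9.54 and 9.69 against 8.54, 8.62 and 8.48 (difference 1.03, adjusted p = 0.00224). The last 2 genes were also higher in KO diaphragm, by 1.51 and 1.52. *Best3*, of the bestrophin family of anion channels, was at 8.30, 8.15 and 8.12 against 7.32, 7.19 and 7.10 (difference 0.99, adjusted p = 5.4e-04). *Bhlhe41*, among the lower genes, was the sixth with this property among the 24 highest and lowest genes, small RNA and predicted genes left out.

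The remaining genes among the 12 highest differed by 0.82 to 0.94. *Odc1*, ornithine decarboxylase, the rate-limiting enzyme of polyamine synthesis, was at 11.16, 11.20 and 11.24 on the WT diaphragm-labelled arrays and at 10.12, 10.79 and 10.19 in WT gastrocnemius (difference 0.83, adjusted p = 0.0245), while it was lower in KO diaphragm by -1.57. Its call was lost without any 1 of the WT arrays except WT gastrocnemius replicate 2 (adjusted p from 0.0582 to 0.0988). *Rcan1*, an inhibitor of the phosphatase calcineurin that is itself induced by calcineurin, was at 10.18, 9.93 and 10.08 against 9.41, 8.89 and 9.33 (difference 0.85, adjusted p = 0.0147), with 8.93 to 9.36 on the 6 KO arrays. Without replicate 1 or 3 of the WT diaphragm-labelled arrays its adjusted p was 0.0748 or 0.0557. *Pgap4*, of glycosylphosphatidylinositol anchor processing, and *Mras*, a Ras-family GTPase, had differences of 0.94 and 0.82 and lost their call without 4 and 5 of the 6 WT arrays in turn (adjusted p up to 0.0639 and 0.125). Averaged over its probe sets, *Mras* differed by 0.61 and was not called (adjusted p = 0.0701).

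**Figure D3:**
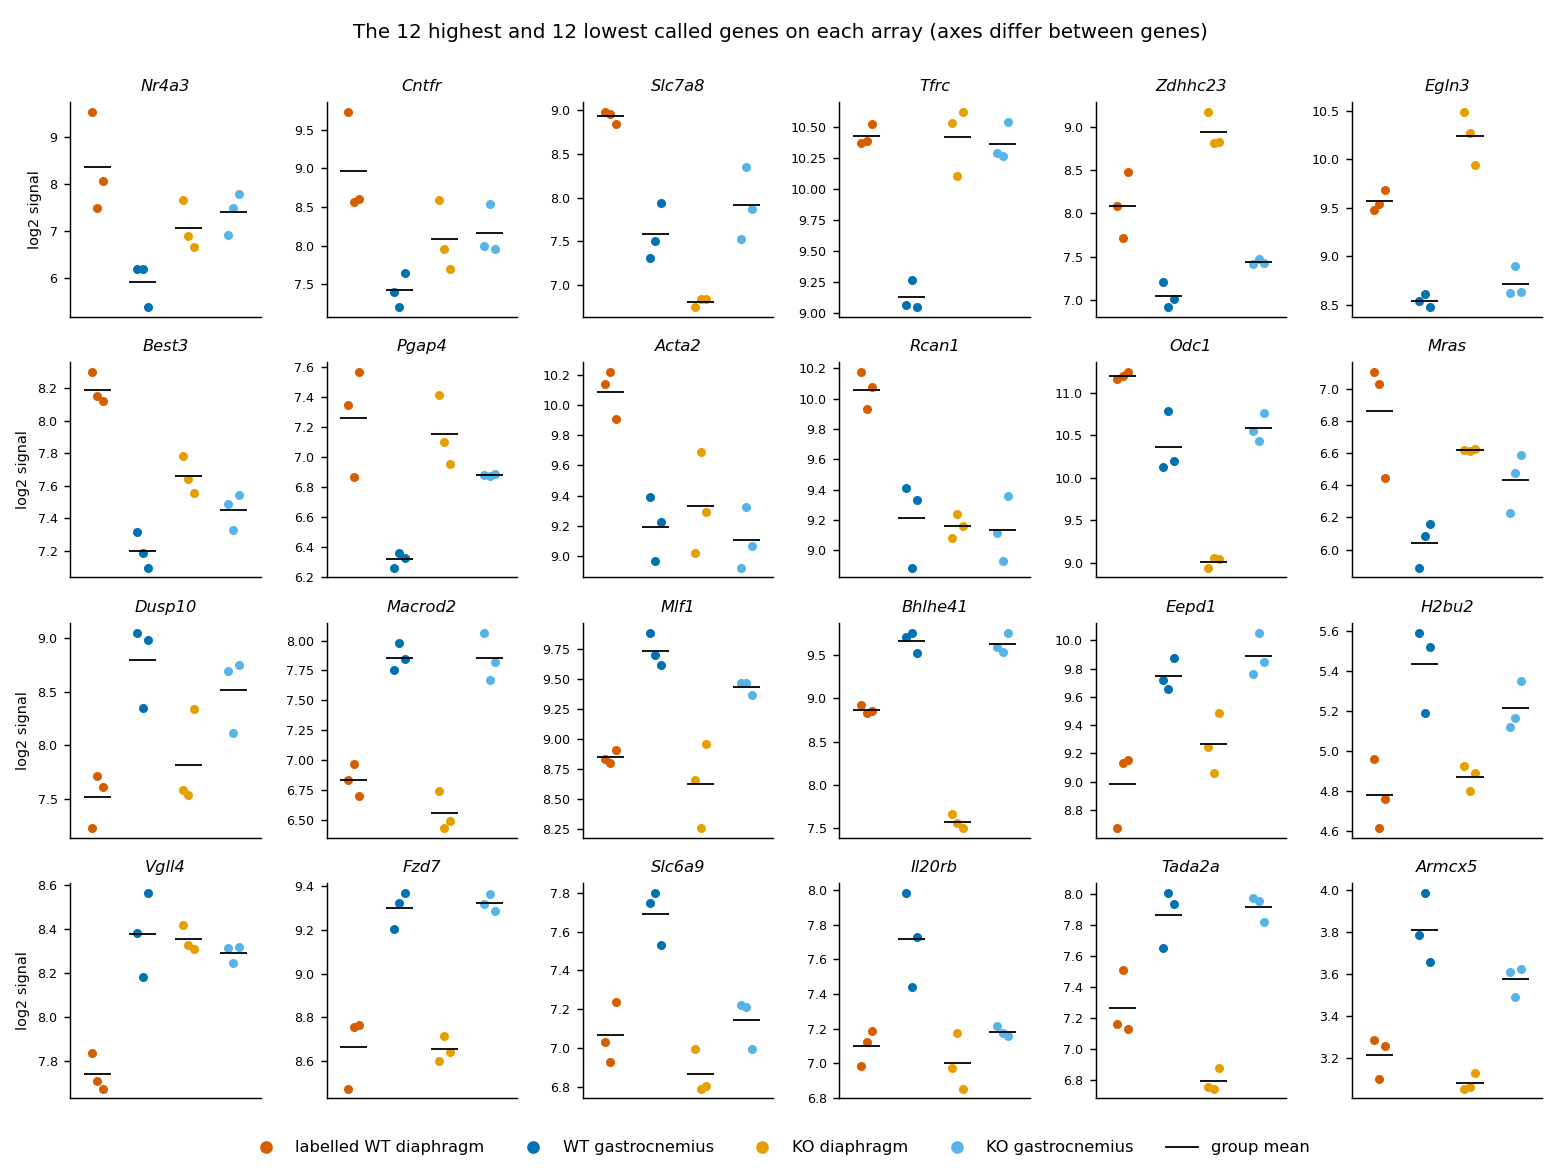
Log2 signal (vertical axes, which differ between genes) of the 12 highest and 12 lowest called genes of the WT comparison, small RNA and predicted genes left out. Each group has 3 arrays, in the order of the legend. Points are arrays and black marks are group means. In every panel the 3 WT diaphragm-labelled arrays lie apart from the 3 of WT gastrocnemius, and the KO arrays of both muscles lie near either group, between them or beyond them.

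With small RNA and predicted genes left out, the 12 lowest genes were led by *Dusp10*, a phosphatase of stress-activated kinases. It was at 7.23, 7.72 and 7.61 on the WT diaphragm-labelled arrays and at 9.05, 8.35 and 8.98 in WT gastrocnemius, a difference of -1.28 (SE 0.24, adjusted p = 0.0312). It was not called without any 1 of the WT arrays except WT gastrocnemius replicate 2 (adjusted p from 0.051 to 0.129). *Macrod2*, an ADP-ribose hydrolase, was at 6.83, 6.97 and 6.70 against 7.75, 7.98 and 7.84, a difference of -1.02 (SE 0.12, adjusted p = 0.00178), and was called without each array in turn. Its other probe sets differed less, and their mean with this one gave -0.42 (adjusted p = 0.107). *Mlf1*, myeloid leukemia factor 1, was at 8.84, 8.80 and 8.91 against 9.89, 9.70 and 9.62 (difference -0.89, adjusted p = 0.0127), and its adjusted p was 0.0518 or 0.0551 without replicate 1 of either group. *Vgll4*, a cofactor of TEAD transcription factors, was at 7.83, 7.71 and 7.67 against 8.38, 8.18 and 8.56 (difference -0.64, adjusted p = 0.0127), with 8.25 to 8.42 on all KO arrays. Without replicate 3 of either group its adjusted p was 0.0526 or 0.051. *Fzd7*, a receptor of Wnt ligands, was at 8.47, 8.76 and 8.77 against 9.20, 9.33 and 9.37 (difference -0.63, adjusted p = 0.00979) and differed by -0.67 in KO. The others were *Eepd1*, *H2bu2*, *Slc6a9*, *Il20rb*, *Tada2a* and *Armcx5*, with differences from -0.76 to -0.59 and adjusted p from 0.0147 to 0.0473. *Armcx5* lost its call without 1 of the WT arrays, WT gastrocnemius replicate 2 (adjusted p = 0.0552), *Il20rb* without all except WT gastrocnemius replicate 2, and each of the other 4 without 4 of the 6 arrays in turn. With its probe sets averaged, *Il20rb* differed by -0.46 and was not called (adjusted p = 0.083).

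*Bhlhe41* encodes a basic helix-loop-helix repressor of the circadian clock that binds E-boxes. It was at 8.92, 8.83 and 8.86 on the WT diaphragm-labelled arrays and at 9.71, 9.75 and 9.52 in WT gastrocnemius, a difference of -0.79 (SE 0.09, adjusted p = 0.00192). In KO it was at 7.67, 7.55 and 7.50 in diaphragm and 9.59, 9.54 and 9.76 in gastrocnemius, a larger difference of -2.06, and the label difference differed between WT and KO (adjusted p = 2.7e-05). It was the only called member of 16 circadian clock and output genes, whose median difference was -0.20 and of which 8 had an unadjusted p under 0.05, against 12.9% of all genes. Between 1 and 3 of the list were called under the alternatives. Promoters are shown for *Bhlhe41*, as the clock gene, and for *Rcan1*, as the calcineurin target, each the window from 250 bases before to 50 after a RefSeq start on the minus strand of GRCm38.p6. They lie at chr6:145865371-145865670 and chr16:92400029-92400328, and capitals mark the E-box CACGTG in the first and the cAMP response element TGACGTCA in the second, both of which read the same on both strands and do not overlap each other.
Bhlhe41: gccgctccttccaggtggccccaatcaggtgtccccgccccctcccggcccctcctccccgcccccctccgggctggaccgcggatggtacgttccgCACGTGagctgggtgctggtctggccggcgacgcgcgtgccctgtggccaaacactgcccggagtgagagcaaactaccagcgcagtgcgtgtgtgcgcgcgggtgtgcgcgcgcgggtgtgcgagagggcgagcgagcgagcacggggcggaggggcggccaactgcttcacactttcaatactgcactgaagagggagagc
Rcan1: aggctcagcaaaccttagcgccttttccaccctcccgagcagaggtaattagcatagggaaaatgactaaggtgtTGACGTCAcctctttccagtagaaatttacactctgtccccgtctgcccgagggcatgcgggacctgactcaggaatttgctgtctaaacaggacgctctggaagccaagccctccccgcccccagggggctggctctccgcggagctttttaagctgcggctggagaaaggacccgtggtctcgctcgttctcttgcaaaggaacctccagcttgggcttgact

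The E-box begins 153 bases before the start of *Bhlhe41*, and the cAMP response element 175 bases before that of *Rcan1*. Many genes have several promoters in the RefSeq table, and a gene was counted if any of its windows held the motif. Of 67 called genes with a promoter there, the cAMP response element stood in 3 of 50 higher genes (*Lrrc8a*, *Rcan1* and *Trp53inp2*) and 1 of 17 lower genes (*Mlf1*), and in 1.79% of all 32851 promoters and 2.72% of tested genes. The E-box stood in 4 of the 50 (*Lamtor1*, *Lrrc8a*, *Rcan1* and *Zdhhc23*) and 4 of the 17 (*Bhlhe41*, *Gm24463*, *Tada2a* and *Vgll4*), for *Rcan1* in another window than the one printed, and in 7.15% of all promoters and 9.50% of tested genes. These matches are a description of the letters in the windows.

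In all, 7 of 37 gene lists had a called member in WT. Besides *Nr4a3* (1 of 22 immediate-early genes) and *Bhlhe41*, these were *Esrrg* (1 of 16 regulators of mitochondrial biogenesis), *Rcan1* and *Rcan2* (2 of 17 calcineurin and fiber type regulators), *Myog* (1 of 17 genes of the neuromuscular junction and denervation), *Myog* and *Sdc4* (2 of 14 satellite cell and myogenic genes), and *Acta2* and *Myh11* (2 of 10 smooth muscle genes). *Esrrg*, an orphan nuclear receptor of oxidative muscle, was at 8.36, 8.16 and 8.37 on the WT diaphragm-labelled arrays and at 7.57, 7.46 and 7.62 in WT gastrocnemius (difference 0.75, adjusted p = 0.00211), and it was higher by 0.89 in KO diaphragm. *Rcan2*, a paralog of *Rcan1*, was at 8.34, 8.09 and 8.41 against 7.63, 7.58 and 7.47 (difference 0.72, adjusted p = 0.00565), with 1.24 in KO. Both kept their call under the 14 alternative limma fits, and neither passed 2-fold. *Myog*, the myogenic regulator myogenin, which is induced by denervation, was at 6.92, 6.32 and 6.46 against 5.98, 5.88 and 5.64 (difference 0.73, adjusted p = 0.041). The call of *Myog* was lost without any 1 of the WT arrays except replicate 2 of the WT diaphragm-labelled arrays (adjusted p from 0.0695 to 0.154) and with the replicate number as a fixed block (adjusted p = 0.0691). *Sdc4*, a heparan sulfate proteoglycan of satellite cells, differed by 0.65 (adjusted p = 0.0119), and without replicate 1 of the WT diaphragm-labelled arrays or replicate 3 of WT gastrocnemius its adjusted p was 0.0518.

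The 10 smooth muscle genes had a median difference of 0.33 in WT with 6 at an unadjusted p under 0.05, against a median of 0.02 and 12.9% at that p over all genes. *Acta2*, smooth muscle actin, was at 10.14, 10.22 and 9.91 on the WT diaphragm-labelled arrays and at 9.39, 8.97 and 9.22 in WT gastrocnemius (difference 0.89, adjusted p = 0.0296), and *Myh11*, smooth muscle myosin, at 8.65, 8.75 and 8.45 against 7.95, 7.95 and 7.98 (difference 0.66, adjusted p = 0.014). On the KO arrays *Acta2* ranged from 8.92 to 9.69 and *Myh11* from 7.69 to 8.02, all below the WT diaphragm-labelled arrays. The summed signal of the list was 11.40 to 11.60 there on the log2 scale, against 10.82 to 11.06 in WT gastrocnemius and 10.83 to 11.21 on the KO arrays. *Acta2* was not called after quantile normalization (adjusted p = 0.0588) or without 4 of the 6 WT arrays in turn (adjusted p up to 0.107), nor *Myh11* without replicate 1 of either group or replicate 3 of WT gastrocnemius (adjusted p from 0.051 to 0.0639). Between 0 and 4 of the 10 genes were called under the alternatives. Keratinocyte genes stood out on 1 array, WT gastrocnemius replicate 1. Their summed signal was 8.98 to 10.65 in WT gastrocnemius, with *Krt5*, a keratin of basal skin cells, at 7.95, 5.81 and 5.25, against 9.07 to 9.18 on the WT diaphragm-labelled arrays, and none of 10 was called. The part of such skin RNA in the other differences was not tested.

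Small RNAs of the nucleolus were a class with mostly negative differences, and were looked at after their values were seen. Of 54 small nucleolar RNA (snoRNA) genes, which guide the modification of ribosomal RNA, 11 were called lower in the WT diaphragm-labelled group and 0 higher, 43 had a negative difference, and the median was -0.26, against 0.166% of all genes called lower and a median of 0.02. For 24 the 3 arrays lay wholly below those of WT gastrocnemius, and for 1 wholly above, against 16.8% of all genes wholly apart in either direction. In KO the median was 0.02, with 3 of the 54 called higher and 10 lower in diaphragm, against 17.7% and 11.2% of all genes. *Snora16a* was at 6.43, 6.42 and 6.33 on the WT diaphragm-labelled arrays and at 8.36, 8.07 and 8.74 in WT gastrocnemius, a difference of -2.00 (SE 0.15, adjusted p = 4.9e-05) that was the largest decrease of all called genes, with a KO difference of -0.96. *Snord15b* was at 7.46, 7.33 and 7.25 against 8.80, 8.26 and 8.47, a difference of -1.16 (SE 0.14, adjusted p = 0.00178), against 0.36 in KO, where it was not called. *Rmrp*, the RNA of an endonuclease that processes ribosomal RNA, was at 9.90, 8.93 and 9.61 against 11.01, 10.93 and 11.20 (difference -1.56), and the 5S ribosomal RNA gene *n-R5s136* at 11.29, 10.98 and 11.52 against 12.47, 12.39 and 12.41 (difference -1.16), both with an adjusted p of 0.00178. Under the alternatives 6 to 11 snoRNA genes were called, all lower, with 6 without replicate 3 of the WT diaphragm-labelled arrays and 7 without replicate 1 or 2 of WT gastrocnemius. Several such RNAs have near-identical copies in the genome, and their probe sets may not tell the copies apart. RNA was extracted with TRIzol and cleaned on RNeasy columns, and the part of small RNA recovery in these differences was not tested.

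**Figure D4:**
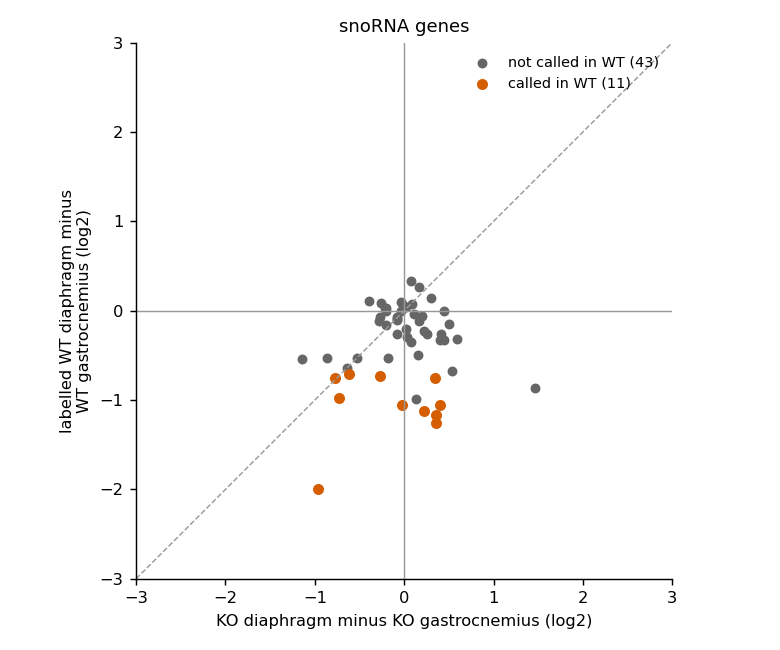
Log2 difference of the 54 snoRNA genes between the WT diaphragm-labelled arrays and WT gastrocnemius (vertical) against that between KO diaphragm and KO gastrocnemius (horizontal), with the 11 genes called in WT in orange and a dashed line of equal differences. The called genes lie between -0.70 and -2.00 in WT, and between -0.96 and 0.40 in KO.

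None of 7 small nuclear RNA genes was called (median -0.18), and of 297 microRNA genes 1 was, *Mir222*, at 4.94, 4.89 and 5.02 on the WT diaphragm-labelled arrays and 4.35, 4.48 and 4.60 in WT gastrocnemius (difference 0.48, adjusted p = 0.0313), with 4.24 to 4.42 on the KO arrays. With 0.461% of all genes called, 1 call among 297 is near that share. All these signals lay below the median signal of 6.11, and how far the call rested on single arrays is not given here. The array probes the gene's transcript and not the mature product, whose sequence from RefSeq (chrX:19146901-19146923, minus strand, GRCm38.p6) is given to identify the gene, with the seed, bases 2 to 8, in capitals.
mmu-miR-222-3p: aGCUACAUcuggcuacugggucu

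The 92 genes were set against the KO comparison, which shares no array with them. Of the 59 higher genes 22 were also called higher in KO diaphragm (37.3%, against 17.7% of all genes), and of the 33 lower genes 19 were also called lower (57.6%, against 11.2%). Another 10 were called in the opposite direction in KO, among them *Slc7a8*, *Odc1* and *Tmem109*, a nuclear membrane protein (0.44 in WT and -1.08 in KO), and 41 were called in WT only. The difference between WT and KO was itself called for 46 of the 92, against 14.8% of all genes. The 92 were chosen on the WT difference, which enters that test, so that an excess was built in. *Egln3*, *Zdhhc23*, *Macrod2*, *Bhlhe41*, *Rcan2*, *Tada2a*, *Rmrp*, *Aldh9a1*, an aldehyde dehydrogenase, and *Lpgat1*, a phospholipid acyltransferase, were the 9 that also separated the KO muscles by 2-fold or more in the same direction. The KO gastrocnemius mean lay closer to WT gastrocnemius for 65 of the 92 genes and closer to the WT diaphragm-labelled arrays for 27, of which 22 were higher and 5 lower genes. *Tfrc* was one of the 27, at 10.29, 10.26 and 10.53 in KO gastrocnemius.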

How the data were processed

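mRNA of diaphragm and gastrocnemius muscle was measured on 12 Affymetrix mouse gene arrays, 3 per group in 4 groups. The authors analysed the scans by RMA sketch in Affymetrix Expression Console, whose version is not given in the sources used here, and the deposited log2 signals were thus background-corrected, normalized between arrays and summarised per probe set (1.65 to 14.4, no 2 arrays identical). RMA aligns the distributions of all arrays, which can hide a shift shared by most genes. Of 35556 probe sets, 21789 carry 1 gene symbol, 1621 several and 12146 are not listed; the brightest single-symbol probe set represented each of 19938 genes (999 had more than 1). These were fitted in R 4.3.3 with limma 3.58.1 (lmFit, eBayes), a mean per group, 8 residual and 6.18 prior degrees of freedom, no covariate. The median residual SD was 0.138, and precision is limited by 3 arrays per group. The fit was tested on simulated data. The methods name no model across genes.

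The members and gene lists were chosen with earlier results of these data known. Genes were named by rule: *Cox6a2*, the called genes with separate arrays and the 12 highest and 12 lowest differences (predicted and small RNA genes left out), members of the mesothelium, position and myosin lists, up to 4 called members of each other list or the 2 with the smallest p, and the 6 highest and 6 lowest of the KO comparison. Classes of RNA, promoters and the microRNA came from RefSeq (GRCm38.p6), and 19919 genes had a class. Alternatives were fits of 1 genotype, the replicate number as a fixed or random block (statmod 1.5.0), a trended robust variance, median centring, quantile normalization, only genes with at least the median signal (6.11), probe sets averaged per gene, each array left out, and the methods' t-test. Counts of snoRNA genes under these were added after seeing the data.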

Additional observations from a re-analysis of the deposited data

Results flagged for a closer look

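The following results were marked because the label difference differed between WT and KO by the test of that difference, or because a signal lay outside the genes tested. The difference between the labels differed between WT and KO for 2958 genes. By list, it did so for 10 of 10 mesothelium genes, 7 of 11 hindlimb position genes and 4 of 9 cervical position genes. It also did so for 6 of 10 myosin heavy chains, 11 of 17 genes of fast glycolytic fibers and 10 of 19 of slow and oxidative fibers. Over all genes the share was 14.8%.

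Of the 24 highest and lowest called genes, small RNA and predicted genes left out, 10 were in this set, against 14.8% of all genes. These 24 were chosen on the WT difference, which enters that test, so that an excess was built in. The WT difference minus the KO difference was 2.77 for *Nr4a3* and 1.63 for *Cntfr*. It was 2.45 for *Slc7a8* and 2.40 for *Odc1*, the pair with opposite directions in WT and KO. For *Tfrc* it was 1.24, for *Best3* 0.78, for *Rcan1* 0.82 and for *Pgap4* 0.67. For *Bhlhe41*, lower in both but less so in WT, it was 1.27, and for *Vgll4* it was -0.70. Probe sets without a single gene symbol, which the comparison did not use, numbered 13767, and in a fit of all probe sets 18 of them were called in the WT comparison, 1 higher and 17 lower (0.131%).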

How the results depend on the processing

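The 92 calls in WT became 45 with only the 6 WT arrays fitted and 193 over genes at or above the median signal, where fewer genes were tested. They became 16 when 2-fold or more was also asked, 1930 by the methods' t-test unadjusted and 0 by it after Benjamini-Hochberg adjustment, and 39 to 84 when 1 array was left out. Of the 886 genes that separated the KO muscles by 2-fold or more, 9 were called in the same direction in WT. The settings also changed how many genes were chosen. The count was 14 over genes at or above the median signal (404 higher and 268 lower in KO). It was 1 at a KO difference of 2 or more (55 higher and 54 lower) and 41 with any called KO difference (5767 genes). When 1 array was left out it was 6 to 12. The mean position of the WT diaphragm-labelled arrays, -0.0063, became 0.069 with any called KO difference and ranged from -0.029 to 0.018 when 1 array was left out. The cause was not tested. Calls in KO, and the test between WT and KO, stayed within a factor of 1.5. No named gene reversed.

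Replicate numbers are shared between groups. Same-numbered WT arrays correlated at -0.013 to 0.148 in their deviations from the group means, 1 of 3 pairs over 0.1. With 3 arrays per group these correlations cannot show whether the numbers pair the arrays. With the replicate block as a fixed effect 63 genes were called in WT (59 of the 92), and with a random replicate block 74 (74 of the 92). Among the genes named in the text, the fixed replicate block ended the calls of *Mras*, *Il20rb*, *Tada2a* and *Myog*, and the random one those of *Il20rb* and *Tada2a*. Fitting only the compared arrays was not run for the test between WT and KO, which needs all 12.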

Other observations

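The following called genes were picked out after their values were seen, and no test of a group lies behind the choice. *Lifr*, a chain of the receptors for leukemia inhibitory factor and related cytokines, averaged 9.49 ± 0.03 (SD, n = 3) on the WT diaphragm-labelled arrays and 8.90 ± 0.099 (SD, n = 3) in WT gastrocnemius, without overlap (difference 0.59, adjusted p = 0.0255), while it was lower by -0.60 in KO diaphragm. *Lrrc8a* and *Lrrc8c*, subunits of volume-regulated anion channels, were higher by 0.62 and 0.60 (adjusted p = 0.0305 and 0.0413). *Epas1*, which encodes the hypoxia-inducible factor HIF-2 alpha, was at 10.12, 10.09 and 10.13 against 9.61, 9.60 and 9.47 (difference 0.55, adjusted p = 0.0121), and at 10.18 to 10.28 in KO diaphragm and 9.48 to 9.69 in KO gastrocnemius.

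*Mss51*, a muscle gene and the lowest of the KO comparison, was at 8.47, 11.78 and 8.45 on the WT diaphragm-labelled arrays and at 10.10, 10.72 and 10.55 in WT gastrocnemius. The difference of -0.89 was not called (adjusted p = 0.605), but without replicate 2 of the WT diaphragm-labelled arrays it was -2.00 (adjusted p = 0.0106). *Ifit3*, an interferon-induced gene, was at 7.20 on WT gastrocnemius replicate 3 and at 4.67 to 5.03 on the other 5 WT arrays.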
